A study of Homo sapiens with 2 samples.

Results

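The 9 leukocyte integrin and adhesion genes examined here were ITGB2, ITGAM, ITGAL, ITGAX, ITGA4, ITGB1, SELPLG, ICAM1 and ICAM3. They were taken by gene symbol from a deposited list that pairs peaks of C/EBPβ binding with the transcripts that start near them, and 6 of the 9 had at least 1 peak. The data came from ChIP-seq, in which an antibody pulls down a DNA-binding protein together with the DNA it occupies and that DNA is sequenced, in HL-60, a human leukaemia cell line labelled as myeloblast. The series holds 2 libraries, a ChIP library made with a C/EBPβ antibody (Santa Cruz, sc-150x) and an input library made with no antibody, both from HL-60 cells overexpressing C/EBPβ. The list belongs to the ChIP library; the input library was not analysed here. The labels do not say how C/EBPβ was overexpressed or whether the cells were 1 clone, and cells without overexpression were not analysed here. With 1 ChIP library and no replicate, no test between samples was possible, and every value below describes that library. No expression was measured, so the myeloblast label could not be set against marker genes.

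Integrins are cell surface receptors made of an α and a β subunit. The β2 subunit, encoded by ITGB2, is restricted to leukocytes and pairs with αL (ITGAL) to form LFA-1, with αM (ITGAM) to form Mac-1 and with αX (ITGAX, CD11c). The α4 subunit (ITGA4) pairs with β1 (ITGB1), which is expressed in most tissues, or with β7. The immunoglobulin superfamily proteins ICAM1 and ICAM3 are ligands of β2 integrins, and SELPLG encodes PSGL-1, the ligand through which leukocytes roll on selectins before integrins arrest them. C/EBPβ binds DNA as a dimer through a basic leucine zipper, and factors of its family act in granulocyte and macrophage development.

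Listed peaks were found at both chains of LFA-1, at α4 of the α4β1 pair, at PSGL-1 and at both ICAM genes, while αM, αX and β1 had none. The 6 of 9 members listed compare with 26.5% of the 19392 protein-coding genes of the RefSeq table, or 5133 genes. The 6 listed genes had 12 distinct peaks in 16 pairs with 9 transcripts. ITGB2 had 5 peaks and ITGA4 had 3, and ITGAL, SELPLG, ICAM1 and ICAM3 had 1 each. At least 3 peaks were listed for 2 members, against 2.28% of all protein-coding genes. Distances run from the transcript start to the middle of the peak and are positive toward higher positions of the human build hg19, whatever the strand of the gene. The deposited score depends on the distance alone and carries no peak height, so the strength of binding at these genes is not known from the list.

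**Figure D1:**
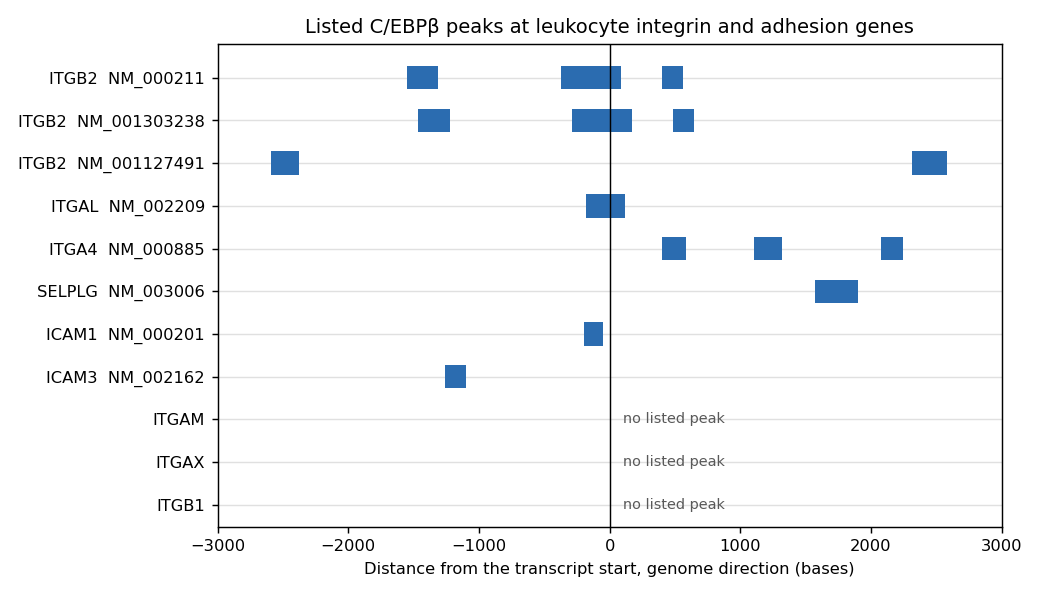
Listed C/EBPβ peaks at the members, 1 row per transcript (1 of the 2 ITGAL transcripts, which share a start). Bars span each peak, and the horizontal axis is the distance in bases from the transcript start in genome direction. The ITGAL peak and the middle peak of NM_000211 and NM_001303238 lie over the start, and ITGAM, ITGAX and ITGB1 have no bar.

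Promoter sequences are shown for 4 members, to set the letters near a start beside the presence or absence of a listed peak: ITGAM, which had none, and ITGA4, ICAM1 and ICAM3, which had some. Each is the 250 bases before the RefSeq start on GRCh38.p14, written 5′ to 3′ along the gene. Capitals mark matches on either strand to any of 5 motifs. C/EBP factors were searched as TTNNGNAA and, in a shorter form, as GCAAT, the myeloid factor PU.1 as GAGGAAG, the general factor SP1 as GGGCGG and the TATA box as TATAAA. The RUNX motif TGTGGT was also searched and had no match in these windows. For ICAM3, which has 3 windows in the table, the one farthest upstream is shown.
ITGAM, chr16:31259725-31259974, plus strand: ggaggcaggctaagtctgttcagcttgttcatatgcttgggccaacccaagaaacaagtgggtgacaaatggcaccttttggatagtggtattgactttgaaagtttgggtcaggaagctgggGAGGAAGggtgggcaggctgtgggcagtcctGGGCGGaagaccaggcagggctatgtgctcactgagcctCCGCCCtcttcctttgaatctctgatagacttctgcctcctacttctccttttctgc
ITGA4, chr2:181457136-181457385, plus strand: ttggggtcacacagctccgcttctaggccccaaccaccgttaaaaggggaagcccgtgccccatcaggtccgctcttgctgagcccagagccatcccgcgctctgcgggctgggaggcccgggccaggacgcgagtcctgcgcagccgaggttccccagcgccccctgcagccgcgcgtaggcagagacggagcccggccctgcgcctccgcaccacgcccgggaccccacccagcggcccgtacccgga
ICAM1, chr19:10270870-10271119, plus strand: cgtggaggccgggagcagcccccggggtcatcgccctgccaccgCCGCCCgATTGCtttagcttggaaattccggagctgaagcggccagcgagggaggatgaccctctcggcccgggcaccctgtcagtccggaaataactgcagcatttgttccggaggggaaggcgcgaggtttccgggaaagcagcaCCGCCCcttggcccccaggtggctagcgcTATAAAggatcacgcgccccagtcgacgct
ICAM3, chr19:10339625-10339874, minus strand: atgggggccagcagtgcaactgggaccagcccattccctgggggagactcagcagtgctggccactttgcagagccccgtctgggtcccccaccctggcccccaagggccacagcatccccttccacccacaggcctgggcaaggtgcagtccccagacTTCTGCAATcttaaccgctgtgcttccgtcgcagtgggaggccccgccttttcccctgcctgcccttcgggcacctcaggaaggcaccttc
The deposited distances refer to RefSeq starts on hg19 and these windows to starts on GRCh38, and the start of a transcript can move between RefSeq versions. The ICAM1 and ICAM3 starts are 68829 bases apart in the list but closer together by the printed windows. The starts of the list and of the windows are therefore not the same for both genes. Motif positions given below count back from the start of the window's own RefSeq entry and cannot be set beside the listed distances. Whether a listed peak covers a printed window was not determined.

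The ICAM3 window held the letters TTCTGCAA from 91 to 84 bases before its start, a match to the C/EBP motif TTNNGNAA that overlaps a match to GCAAT. The ICAM1 window held GCAAT on the other strand, 199 to 195 bases before the start, with a TATA box at 30 bases before it. GGGCGG also matched there on the other strand, 206 to 201 and 59 to 54 bases before the start. The ITGAM window had neither C/EBP motif. It held the PU.1 motif GAGGAAG 127 to 121 bases before the start and GGGCGG on both strands. The ITGA4 window, at 72.8% G and C, matched none of the motifs searched. ITGB1 has 2 windows in the table, neither shown. The first had 3 matches to GGGCGG and none to the other motifs, and the second held GCAAT 93 to 89 bases before its start and 3 matches to TATAAA. Counting the first window of each gene, TTNNGNAA occurred in 1 of the 5 members with a window, beside 27.6% of 15489 protein-coding genes. GCAAT occurred in 2 of the 5 first windows, beside 18.9% of those genes. It occurred in 3 of the 5 members when every window of a member is counted. That last count has no share over all genes to stand beside it, because only first windows were counted for all genes. GAGGAAG occurred in 11.7% of the first windows of all genes, TGTGGT in 8.92%, GGGCGG in 56.6% and TATAAA in 9.22%. Among the 2090 windows of genes with a listed peak within 250 bases of a start, 30.5% held TTNNGNAA, against 27.1% of the other 13399 windows. The presence or absence of a motif in a member's window is a description only. ITGB2, ITGAL, ITGAX and SELPLG had no entry in the promoter table.

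ITGB2, the chain shared by all β2 integrins, had the most peaks of the 9 members. Across the genome, 37 protein-coding genes (0.191%) had at least 5. These counts add the peaks at all starts of a gene. No single ITGB2 transcript was paired with more than 3 peaks, and 8.02% of the curated transcripts with any peak had at least 3. The 3 listed ITGB2 transcripts start at 46340877 (NM_001303238), 46340965 (NM_000211) and 46348788 (NM_001127491) on chromosome 21. The lower 2 starts are 88 bases apart and the upper 2 are 7823 bases apart. Around the lower starts lay 3 peaks, at 46339411 to 46339653, 46340592 to 46341049 and 46341363 to 46341526. The middle one of these covered both starts, with its centre 57 bases below the first and 145 bases below the second. At 457 bases it was wider than 91.1% of all listed peaks and was the widest of the 12 member peaks. Its neighbours were 242 and 163 bases wide, and the edges of the 3 peaks were 939 and 314 bases apart.

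The remaining 2 ITGB2 peaks, at 46346200 to 46346408 and 46351103 to 46351367, were paired with the upper start alone. They lay on either side of it, at −2484 and 2447 bases, close to the limit of 3000 bases that every pair in the list respects. Their near edges were 2380 and 2315 bases from it. The start shared by the 6 listed transcripts of the antisense gene ITGB2-AS1 falls between the lower ITGB2 starts, 72 bases above the first. The 3 peaks around the lower starts were accordingly paired with ITGB2-AS1 too, at −1417, −129 and 495 bases, and the list cannot assign them to one gene or the other. Peak names carry running numbers along each chromosome. The ITGB2 peaks are 15963, 15964, 15965, 15967 and 15968, and the missing number, 15966, falls in the 4674 bases between the lower group and the next peak.

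**Figure D2:**
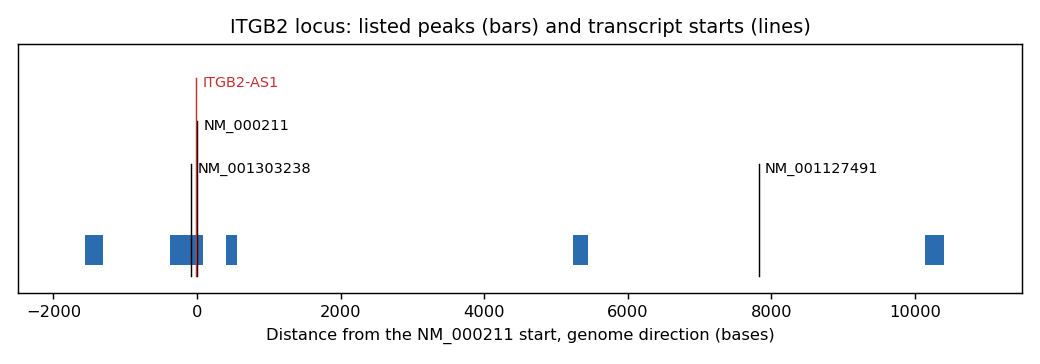
ITGB2 locus, with the 5 listed peaks as bars and the starts of 3 ITGB2 transcripts and of ITGB2-AS1 as vertical lines. The horizontal axis is the distance in bases from the NM_000211 start in genome direction. Of the 5 peaks, 3 surround the lower starts and 2 flank the NM_001127491 start.

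ITGAL, the α chain of LFA-1, had a single peak placed on its start. The peak spans 30483798 to 30484100 on chromosome 16, and both listed transcripts, NM_002209 and NM_001114380, start inside it, at 30483982. Its middle lay −33 bases from the start, the nearest of any member, and 8.9% of the listed protein-coding genes had a nearer peak. With 302 bases it was wider than 72.2% of the listed peaks, and no other gene shared it. ITGAL and ITGB2, the pair that makes LFA-1, were the 2 members with a start used in the list inside a peak. That position was found for 8.27% of all protein-coding genes.

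The partners of β2 in Mac-1 and in the CD11c integrin were not in the list. In the gene order of GRCh38, ITGAM and ITGAX lie together on chromosome 16 between PYCARD-AS1, an antisense gene at the inflammasome adaptor gene PYCARD, and ARMC5. The PYCARD-AS1 peak ends at 31213212 and the first ARMC5 peak begins at 31470087, and no listed peak falls in the 257 kb between them. The running numbers of those peaks are 9341 and 9348, so 6 numbers in between belong to no listed peak. If the numbering is complete, peaks were called in this stretch at more than 3000 bases from any start that the authors paired. Absence from the list therefore does not show that C/EBPβ was absent from the ITGAM and ITGAX loci. Nor does the list show whether ITGAM and ITGAX transcripts were among those the authors paired.

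Of the α4β1 pair, the leukocyte receptor for VCAM1 and fibronectin, only the α4 gene was listed. ITGA4 had 3 peaks on chromosome 2, at 182322020 to 182322205, 182322722 to 182322937 and 182323694 to 182323863. All were paired with the single listed transcript NM_000885, which starts at 182321618, at 494, 1211 and 2160 bases. By the strand of the RefSeq entry all 3 lie downstream of the start. They were narrow, at 185, 215 and 169 bases, each below the list's median of 229 bases, and their edges were 517 and 757 bases apart. At least 3 peaks were paired with 8.02% of the curated transcripts that had any. No peak covered the ITGA4 start used in the list, and 64.3% of listed protein-coding genes had a peak nearer a start than its 494 bases. Whether the start of the printed ITGA4 window lies inside a peak was not determined. ITGA4 shared none of its peaks with another gene. For ITGB1, the nearest listed genes on either side in GRCh38 order on chromosome 10 were CCDC7 and CUL2, whose facing peaks are 2644 kb apart, with 21 running numbers but no listed peak between them. As for ITGAM and ITGAX, absence from the list does not show that C/EBPβ was absent from the ITGB1 locus. Whether ITGB1 transcripts were among those the authors paired is not known either.

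SELPLG, the selectin ligand, had 1 peak at 109029243 to 109029570 on chromosome 12. Its middle was 1736 bases from the start at 109027670, farther than the nearest peak of any other listed member, and 89.3% of listed protein-coding genes had a nearer one. At 327 bases it was wider than 77.1% of the listed peaks. The same peak was paired with the microRNA gene MIR4496, whose start lies 1915 bases above that of SELPLG and −179 bases from the peak middle. Given to its nearest start only, the peak belongs to MIR4496 and SELPLG is no longer listed. In all, 4 of the 12 member peaks were shared with another gene, namely this one and the 3 shared with ITGB2-AS1, against 21.6% of all listed peaks paired with more than 1 gene.

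ICAM1 and ICAM3, ligands of LFA-1, each had 1 narrow peak on chromosome 19. The ICAM1 peak, at 10381322 to 10381468, had its middle −121 bases from the start at 10381516, upstream by the strand of the RefSeq entry, and ended 48 bases short of that start. It was 146 bases wide, the smallest width in the list, which 564 peaks (8.02%) share. The ICAM3 peak, at 10449083 to 10449243, was 160 bases wide and lay −1182 bases from the start at 10450345. ICAM3 is on the minus strand of the RefSeq entry, which places the peak downstream of the start. It was paired with 1 transcript, NM_002162. The GRCh38 RefSeq table holds 7 curated ICAM3 transcripts, but whether the others were among those the authors paired is not known.

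ICAM1, ICAM4, ICAM5 and ICAM3 lie in 1 cluster. The listed peaks between the ICAM1 peak and the ICAM3 peak were wider than both. Pairs rest on transcript starts alone, and whether these peaks lie inside a neighbouring gene was not determined. ICAM4, the erythroid member of the family, starts 16126 bases above ICAM1 and had 3 peaks, at −1999, −525 and 334 bases, with widths of 227, 566 and 522 bases. The widest was wider than 95.7% of the listed peaks. ICAM5, the neuronal member, starts 3012 bases above ICAM4 and was listed through the last of these peaks alone, at −2678 bases. Between the ICAM1 peak and the first ICAM4 peak, 14062 bases away, 1 running number belongs to no listed peak. The ICAM3 start lies 68829 bases above that of ICAM1, and the nearest other listed peak to that of ICAM3 was 548 bases wide and belonged to RAVER1.

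**Figure D3:**
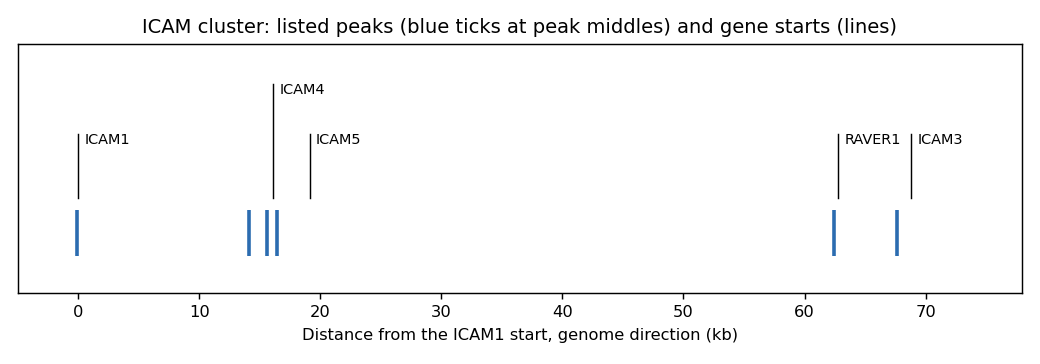
ICAM cluster on chromosome 19, with the middles of listed peaks as blue ticks and gene starts as vertical lines. The horizontal axis is the distance in kb from the ICAM1 start in genome direction. Of the 6 peaks, 1 is paired with ICAM1, 3 with ICAM4 (1 of them also with ICAM5), 1 with RAVER1 and 1 with ICAM3.

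The 12 member peaks ranged in width from 146 to 457 bases with a median of 211.5, beside a median of 229 bases over all 7029 peaks. The width of 5 was above that median, and these were 3 of the ITGB2 peaks and the ITGAL and SELPLG peaks. By the starts used in the list, 3 members had a peak within 250 bases of a start (ITGAL, ITGB2 and ICAM1), against 12.8% of all protein-coding genes. ITGA4 followed at 494 bases, and the nearest peaks of ICAM3 and SELPLG lay beyond 1000 bases. The GRCh38 starts differ from those of the list for ICAM1, ICAM3 or both, and these distances were not computed from GRCh38 starts. The median of the nearest distances was 307.5 bases over the 6 listed members and 265 bases over all listed protein-coding genes.

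**Figure D4:**
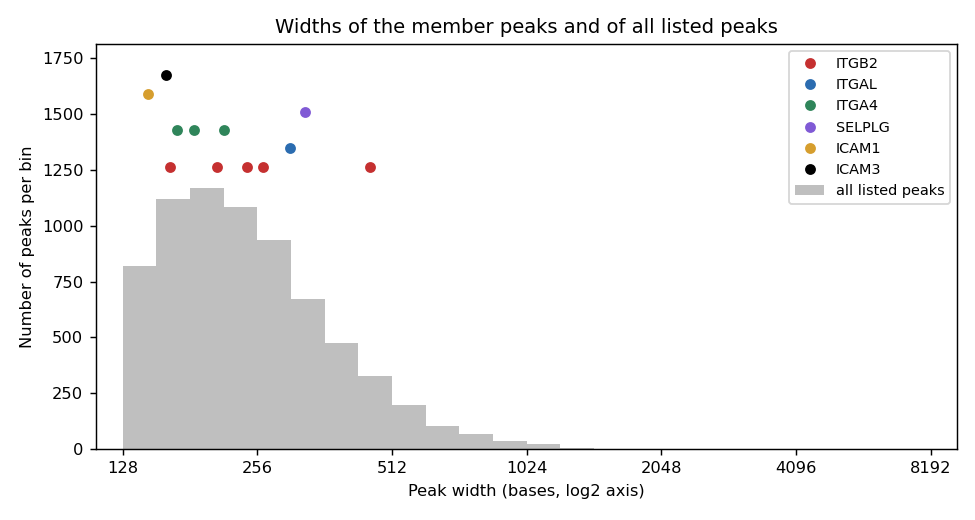
Widths of all listed peaks (grey bars, number of peaks per 0.25 log2 unit) and of the member peaks (1 point per peak, by gene, at arbitrary heights), on a log2 axis in bases. The member peaks span 146 to 457 bases, within the bulk of the list.

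Other genes of leukocyte adhesion were counted in 4 lists with 88 genes in all, of which 37 (42%) had a listed peak. The share over all protein-coding genes was 26.5%. Of 20 further integrin subunit genes, 3 were listed (15%), each with 1 peak. These were ITGA2B, the platelet αIIb chain, at 908 bases, ITGB7, the alternative partner of α4, at −1322 bases, and ITGA5, the fibronectin receptor chain, at −1813 bases. The unlisted members of that list include ITGA1, ITGA10 and ITGA11. ITGAD, the β2 partner next to ITGAX, was also unlisted; it is named for that position after its value was seen.

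Genes of integrin activation and linkage to actin were listed for 19 of 30 (63.3%), beside 26.5% of all protein-coding genes. All 19 had a peak within 1000 bases of a start, against 20.9% of all protein-coding genes, or 4055 of the 5133 listed. The nearest were at FGR, a Src family kinase of myeloid cells, at −35 bases, RASSF5, the Rap1 effector known as RAPL, at −38 bases, and ZYX, the focal adhesion protein zyxin, at −47 bases. PTK2B, the kinase PYK2, had the most peaks with 4. APBB1IP, the talin-recruiting Rap1 effector RIAM, had 3, of which the nearest was 931 bases wide. CYTH1, FERMT1 and FERMT2 were among the unlisted. Some genes of proteins that bind β integrin tails, not a full set, were looked up after the values were seen. The talin gene TLN1 had a peak at −157 bases, shared with CREB3 and MIR6853, and the leukocyte kindlin gene FERMT3 had 2 peaks, the nearest at −956 bases. The second talin gene TLN2, the filamin gene FLNA and ITGB1BP1 had none.

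Selectins and other surface adhesion molecules were listed for 8 of 25 (32%), near the 26.5% of all protein-coding genes. SPN, the leukocyte sialophorin CD43, had 3 peaks with the nearest at 124 bases, CD58, the ligand of CD2, had 1 at −133 bases, and ICAM4 had 3 as described. EMB, embigin, had 3 peaks too. CD2, CD34 and CD44 were unlisted. Enzymes and transporters that build selectin ligands were listed for 7 of 13 (53.8%), beside the same 26.5%. FUT7, the fucosyltransferase that completes the selectin-binding glycan on PSGL-1, had 5 peaks with the nearest at −25 bases. B4GALT1, a galactosyltransferase, had 2 with the nearest at 274 bases, ST3GAL6, a sialyltransferase, had 1 at 647 bases, and FUT4, a further fucosyltransferase of myeloid cells, had 3 with the nearest at 664 bases. B4GALT5, C1GALT1C1 and ST3GAL3 were unlisted.

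**Figure D5:**
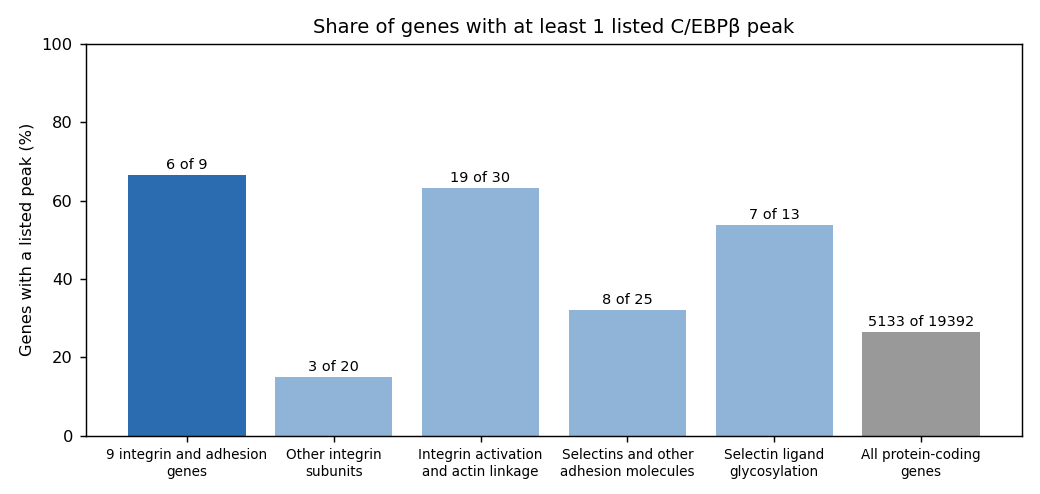
Share of genes with at least 1 listed peak, in percent, for the 9 members, 4 lists of other adhesion genes and all protein-coding genes, with counts above the bars. The members stand at 6 of 9, integrin activation genes at 19 of 30, other integrin subunits at 3 of 20 and all protein-coding genes at 5133 of 19392.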

How the data were processed

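Per the submitters' processing notes, BWA 0.7.10, SAMtools and MACS2 2.1.1 were used with build hg19, with no role, setting or threshold given. The authors' deposited file pairs peaks with RefSeq transcripts in 17637 lines, each with peak start and end, distance and score. The sources used here do not say whether starts count from 0 or 1, or whether peaks were called against the input. The deposited score is exp(−(0.5 + 4 × |distance| / 3000)), to within 5e-13. Read depth is unknown, so no precision can be given for a peak. Starts were computed as peak middle minus distance; 3742 of 3744 transcripts with several peaks gave 1 start within 2 bases.

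Transcripts were matched to a GRCh38.p14 RefSeq table for names and gene order only; 12331 of 12532 matched by accession, 129 by symbol, 58 by older symbol, and 14 kept their deposited symbol. A gene counted as listed with at least 1 paired peak, over 19392 protein-coding genes of chromosomes 1 to 22 and X. Promoter windows and strands came from RefSeq on GRCh38.p14; 5 of 9 members matched. Motifs were searched on both strands.

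The members, lists and alternatives were chosen with earlier results of these data known. Named were all members, genes sharing their peaks and, per list, up to 3 genes with the nearest peaks, 2 with most peaks (ties by alphabet) and 3 unlisted ones in alphabetical order. No significance test was run. Functions were checked on simulated sequences and intervals. Python 3.11.15, pandas 2.3.3 and matplotlib 3.10.9 were used.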

Additional observations from a re-analysis of the deposited data

How the results depend on the processing

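Of the 9 members, 6 were listed, and 5 when a peak counted for its nearest start alone, which removed SELPLG. Peaks within 1000 or within 500 bases of a start left 4, without SELPLG and ICAM3, and peaks wider than the median left 3, namely ITGB2, ITGAL and SELPLG. The 12 member peaks became 5 within 1000 bases, 5 within 500 bases and 5 with the wider peaks, and 11 when peaks with edges within 500 bases were joined. The 37 other adhesion genes became 20 within 500 bases and 22 with the wider peaks. Over all protein-coding genes, 5133 listed (26.5%) became 4540 (23.4%) with each peak given to its nearest start alone. They became 4055 (20.9%) within 1000 bases, 3317 (17.1%) within 500 bases and 2986 (15.4%) with the wider peaks. The other settings kept each of these counts within 1.5 times its first value. Except for the joining of peaks, each of these settings keeps fewer pairs by construction. With GCAAT in place of TTNNGNAA, 2 members had a C/EBP motif in their first window in place of 1. The shares over all first windows were 18.9% for GCAAT and 27.6% for TTNNGNAA. No paired analysis was possible because the list comes from 1 library. Read depth and peak strength are not in the list, so weak and strong peaks could not be told apart.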
